A study of Mus musculus with 9 samples.

Results

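The genes described here make, load, take up and break down the inhibitory transmitter GABA, form its receptors, or hold those receptors at the synapse. They are 25 named mouse genes: 5 for synthesis, vesicle loading, uptake and breakdown (Gad1, Gad2, Slc32a1, Slc6a11, Abat), 15 subunits of ionotropic GABA-A receptors (5 alpha, 2 beta, 2 gamma, 4 of the delta, epsilon, theta and pi classes, and 2 rho), the 2 subunits of the metabotropic GABA-B receptor, and 3 genes for scaffolding and trafficking (Gphn, Gabarap, Nsf). Array probes were assigned to them through the RefSeq accession of the probe. Of the 25 genes, 24 had a probe and 20 were bright enough to be fitted, among 16358 named genes on the array and 12618 fitted genes. Gabbr2, a GABA-B subunit, was not analysed here. Gabra6, Gabrp and Gabrr2 were not well above background on any of the 9 arrays and Gabrg3 was on 1, so these 4 were not fitted.

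Messenger RNA was measured with single-colour microarrays in amygdala, hypothalamus and prefrontal cortex of male wild-type C57BL/6J mice aged 8 to 9 weeks. CR mice were given, spread over 2 days, 50% of the food that the RFR mice had eaten. RFR mice alternated between a day of fasting and a day of free feeding, and AD mice, the controls, fed freely throughout. On day 8, RNA of 4 mice was pooled for each combination of region and diet, which gave 9 arrays, 1 per combination, and the 3 regions of a diet came from the same mice. By its title, the study was about caloric restriction, mood-related behaviour and gene expression in the amygdala.

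GABA is made from glutamate by glutamate decarboxylases, packed into vesicles by the transporter Slc32a1, cleared from the extracellular space by plasma membrane transporters and degraded by the transaminase Abat. GABA-A receptors are pentameric chloride channels whose subunits set where they sit and how they gate: receptors with a gamma subunit cluster at synapses on the scaffold gephyrin, whereas receptors with the delta subunit lie outside synapses and carry a tonic current. GABA-B receptors act through G proteins, and rho subunits form receptors best known from the retina. In hypothalamus and amygdala, GABA neurons take part in the control of feeding and of fear, and in cortex they are local interneurons.

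Signals are given as log2 of the processed spot signal with each array's own 75th percentile set to 0, the level of a fairly bright probe. An array had 43379 spots that were not controls, and between 59.8% and 69.6% of them stood well above background. All 10 fitted hypothalamic markers were called higher in hypothalamus than in prefrontal cortex (26.7% of all genes), and 7 were called higher in amygdala too (12.1%). Their summed log2 level was 8.40 to 8.73 in hypothalamus, 3.87 to 4.08 in amygdala and -0.42 to 0.09 in prefrontal cortex. Otp from that list was not above background on any array. Of 9 amygdala markers, 6 were called higher (12.1%) and 2 lower (10.2%) in amygdala than in prefrontal cortex. Against hypothalamus 6 were called higher (13.5%) and 1 lower (15.9%). The summed amygdala level was 5.23 to 5.53 in amygdala, 3.96 to 4.17 in hypothalamus and 3.90 to 4.12 in prefrontal cortex. The summed level of cortical excitatory markers was 2.16 to 2.27 in hypothalamus and 5.22 to 5.44 in prefrontal cortex, whose slice the labels place 2.5 to 3.5 mm behind bregma. In amygdala it was 4.46 on the AD array, 4.01 on the RFR array and 3.86 on the CR array. The CR amygdala array was alone on its slide and was scanned in another session, and every CR array lay on a different slide from the AD array of its region. Diets in amygdala can therefore not be told apart from slides.

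Most of the variation of these genes lay between regions. Over the 9 arrays, a median of 81.0% of the variation of a fitted GABA gene lay between regions and 7.69% between diets, and 17 of the 20 had over 50% between regions. These shares were not computed over all fitted genes, so they do not set the GABA genes apart. The limma fit called 10 of 20 between amygdala and hypothalamus, against 29.4% of all fitted genes: 6 were higher in amygdala (13.5% of all genes) and 4 lower (15.9%). Between amygdala and prefrontal cortex it called 10 of 20, against 22.3% of all genes, with 7 higher in amygdala (12.1%) and 3 lower (10.2%). Between hypothalamus and prefrontal cortex it called 14 of 20, against 48.0%, with 9 higher in hypothalamus (26.7%) and 5 lower (21.3%), the contrast with most calls among all fitted genes too. The arrays of the 2 regions did not overlap for 12, 10 and 15 of the 20 genes in these contrasts, against 40.0%, 34.1% and 59.6% of all genes. The median difference of the 20 genes was -0.12, 0.31 and 0.21 log2 units in these contrasts, beside -0.06, 0.00 and 0.06 for all genes. Abat, Gabra4, Gabrg1, Gabrd and Gabrq were called in all 3 contrasts, while Gabra5, Gabrr1 and Gabbr1 were called in none. The share of all genes called in all 3 or in none was not counted. These counts include Gabrq, in all 3, and Gabre, in the contrast of hypothalamus with prefrontal cortex, which passed the filter on dim genes through hypothalamus and the CR amygdala array alone, so that no support is taken from them. Without the CR amygdala array the counts were 12, 7 and 14. The amygdala and prefrontal cortex contrast was the one that moved most: with slide as a term of the model, 3 genes were called (Slc32a1, Gabrg1 and Gabrd). In pooled tissue, fewer cells of a type and less RNA per cell cannot be told apart.

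**Figure D1:**
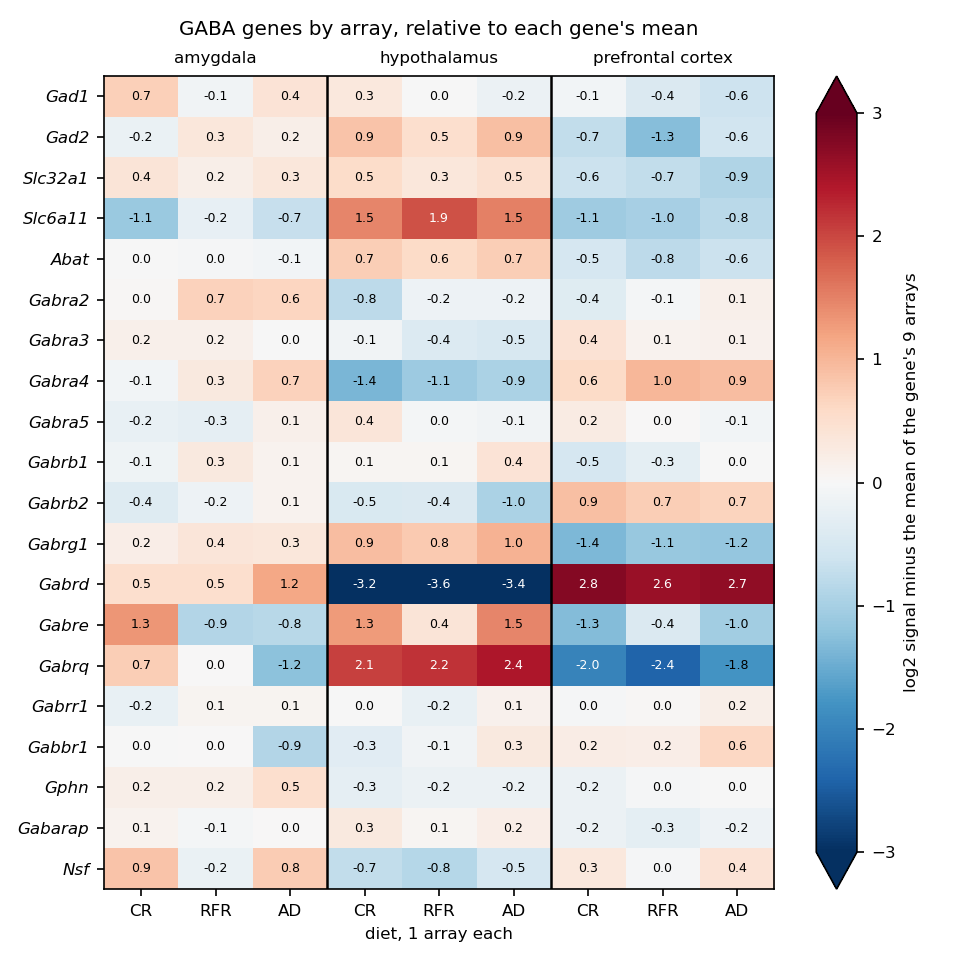
Log2 signal of the 20 fitted GABA genes (rows) on each of the 9 arrays (columns, grouped by region and then diet), minus the mean of that gene's 9 arrays; colours are clipped at 3 log2 units in either direction and the numbers are not. Gabrd is lowest on the 3 hypothalamus arrays and highest on the 3 prefrontal cortex arrays, Gabrg1 and Gabrq run the other way, and Slc6a11 is highest on the 3 hypothalamus arrays.

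Of the 5 genes of synthesis, loading and removal, 4 were called higher in amygdala than in prefrontal cortex (12.1% of all genes) and 4 higher in hypothalamus than in prefrontal cortex (26.7%), with none called lower. Striatal projection neurons are GABA neurons too. Of their 11 fitted markers, 9 were called higher in amygdala than in prefrontal cortex (12.1% of all genes). In hypothalamus 6 were called higher (26.7%) and 2 lower (21.3%) than in prefrontal cortex. Their summed level was 6.38 to 6.57 in amygdala, 5.73 to 5.79 in hypothalamus and 4.64 to 4.69 in prefrontal cortex. Of 13 fitted interneuron markers, 6 were called higher (12.1%) and 4 lower (10.2%) in amygdala than in prefrontal cortex. In hypothalamus 5 were called higher (26.7%) and 5 lower (21.3%). The summed interneuron level was 6.04 to 6.29 in amygdala, 6.06 to 6.23 in hypothalamus and 6.02 to 6.17 in prefrontal cortex. The part of either cell type in the result was not tested. Slc32a1, the vesicular GABA transporter, marks GABA neurons as a class. It read 6.69, 6.49 and 6.65 on the CR, RFR and AD arrays of amygdala, 6.85, 6.65 and 6.79 on those of hypothalamus, and 5.67, 5.58 and 5.42 on those of prefrontal cortex. All 3 prefrontal values lay more than 0.8 log2 units below every other value. The difference from prefrontal cortex was 1.06 ± 0.10 log2 units (SE) for amygdala (2.08-fold, adjusted p = 0.000624) and 1.21 ± 0.10 for hypothalamus (2.32-fold, adjusted p = 0.000101). The difference between amygdala and hypothalamus was not called (-0.16 ± 0.10, adjusted p = 0.294). It was -0.16, -0.16 and -0.15 within CR, RFR and AD.

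Gad2 encodes the decarboxylase found mainly in axon terminals. Its signal was 1.80, 2.33 and 2.15 on the CR, RFR and AD arrays of amygdala, 2.84, 2.49 and 2.90 on those of hypothalamus, and 1.24, 0.71 and 1.40 on those of prefrontal cortex, 3 groups that did not overlap. It was 3.09-fold higher in hypothalamus than in prefrontal cortex (1.63 ± 0.21 log2 units, adjusted p = 0.000693) and 1.97-fold higher in amygdala than in prefrontal cortex (0.98 ± 0.21, adjusted p = 0.0159). The amygdala value was below the hypothalamic one by an amount that missed the threshold (-0.65 ± 0.21, adjusted p = 0.0544), and 7 of 20 alternatives called it. Gad1 encodes the decarboxylase spread through the cell body. It read 3.76, 2.94 and 3.46 on the CR, RFR and AD arrays of amygdala, 3.36, 3.05 and 2.87 on those of hypothalamus, and 2.97, 2.63 and 2.42 on those of prefrontal cortex, with overlapping ranges. Only amygdala over prefrontal cortex was called (0.72 ± 0.16, adjusted p = 0.0187), and without the CR amygdala array it was not. A second Gad1 probe gave nearly the same regional differences, 0.71 for amygdala over prefrontal cortex (adjusted p = 0.0278 in the fit over 17673 probes) and 0.39 for hypothalamus over prefrontal cortex (adjusted p = 0.0979).

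The decarboxylase genes share a product but not a start region. Their windows run from 250 bases before to 50 bases after the annotated start (RefSeq, GRCm38.p6). They are shown because Gad1 and Gad2 had opposite order of amygdala and hypothalamus means and, further on, opposite direction for CR against AD. No such difference was called in the main setting, and the genes were not tested against each other. Capitals mark 3 promoter motifs searched on both strands: GGGCGG, which 35.7% of all 32851 such windows hold, CCAAT (37.4%) and TATAAA (13.6%). Gad1 lies on the plus strand at chr2:70561879-70562178 and Gad2 on the plus strand at chr2:22622077-22622376.
Gad1: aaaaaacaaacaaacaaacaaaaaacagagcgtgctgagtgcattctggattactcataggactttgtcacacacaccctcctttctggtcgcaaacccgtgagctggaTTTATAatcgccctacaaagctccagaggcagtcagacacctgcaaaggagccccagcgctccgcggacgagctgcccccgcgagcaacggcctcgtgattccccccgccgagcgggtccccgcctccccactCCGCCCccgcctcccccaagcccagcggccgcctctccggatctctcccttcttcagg
Gad2: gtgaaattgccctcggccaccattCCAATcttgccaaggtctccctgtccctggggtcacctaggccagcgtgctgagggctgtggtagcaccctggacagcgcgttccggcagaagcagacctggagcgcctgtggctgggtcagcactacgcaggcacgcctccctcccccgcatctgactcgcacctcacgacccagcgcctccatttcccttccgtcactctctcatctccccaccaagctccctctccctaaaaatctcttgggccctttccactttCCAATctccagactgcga
The Gad1 window holds 1 TATAAA and 1 GGGCGG and no CCAAT, while the Gad2 window holds 2 CCAAT and neither of the others.

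Abat, the transaminase that degrades GABA, had the smallest share of variation left after region and diet among the 5 genes (0.84%). It read 4.26, 4.23 and 4.19 on the CR, RFR and AD arrays of amygdala, 4.99, 4.84 and 5.0 on those of hypothalamus, and 3.76, 3.48 and 3.61 on those of prefrontal cortex, and the regions did not overlap. Hypothalamus exceeded prefrontal cortex by 1.32 ± 0.10 log2 units (2.50-fold, adjusted p = 5.32e-05), and amygdala lay between them, -0.71 from hypothalamus (adjusted p = 0.00226) and 0.61 from prefrontal cortex (adjusted p = 0.00513). Slc6a11 encodes a plasma membrane GABA transporter found mainly on astrocytes. It read 0.24, 1.11 and 0.68 on the CR, RFR and AD arrays of amygdala, 2.83, 3.26 and 2.88 on those of hypothalamus, and 0.30, 0.37 and 0.55 on those of prefrontal cortex. Here hypothalamus stood apart, 5.98-fold above prefrontal cortex (2.58 ± 0.17, adjusted p = 2.94e-05), and amygdala was 4.96-fold below hypothalamus (-2.31 ± 0.17, adjusted p = 0.000161). A dimmer second probe gave 2.52 and -1.66, both called. Of 8 fitted astrocyte markers, 3 were called higher (26.7% of all genes) and 1 lower (21.3%) in hypothalamus than in prefrontal cortex. Their summed levels were 7.56 to 7.80 in hypothalamus and 7.38 to 7.46 in prefrontal cortex. The part of astrocyte content in the Slc6a11 difference was not tested.

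**Figure D2:**
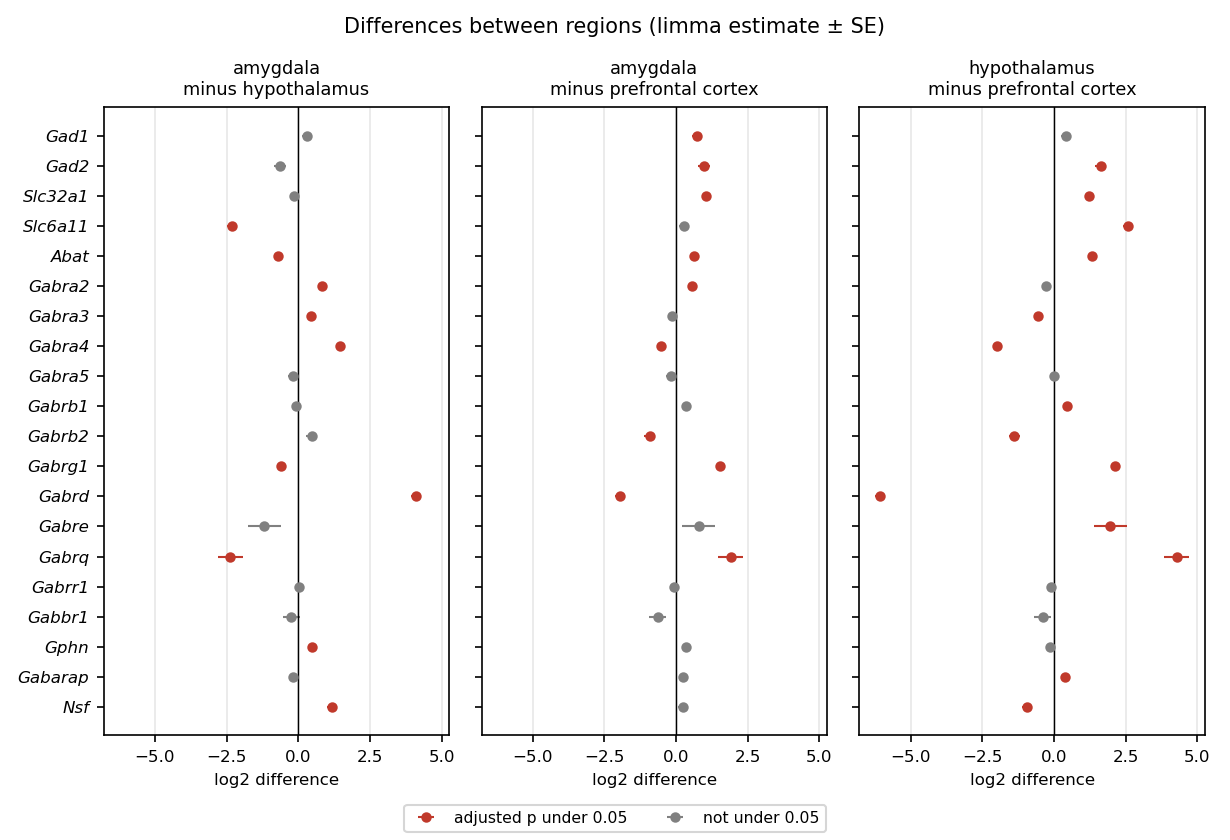
Log2 differences between regions for the 20 fitted GABA genes, as limma estimates with SE bars, in the 3 contrasts; red points passed an adjusted p of 0.05 and grey points did not. Gabrd has the widest span, 4.11 for amygdala minus hypothalamus and -6.06 for hypothalamus minus prefrontal cortex.

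Among GABA-A subunits the delta subunit gene Gabrd showed the largest regional difference of the fitted GABA genes. It read 2.06, 2.05 and 2.71 on the CR, RFR and AD arrays of amygdala, -1.66, -2.00 and -1.86 on those of hypothalamus, and 4.31, 4.14 and 4.21 on those of prefrontal cortex. Hypothalamus was lower than prefrontal cortex by 6.06 ± 0.17 log2 units, a 66.8-fold difference (adjusted p = 1.64e-06), and the difference ranged between -6.15 and -5.97 within single diets. Amygdala was 17.3-fold above hypothalamus (4.11 ± 0.17, adjusted p = 2.13e-05) and 3.86-fold below prefrontal cortex (-1.95 ± 0.17, adjusted p = 0.000424). Gabrd was called in all 3 contrasts under all 20 alternatives tried for each. Its amygdala value was highest on the AD array, the amygdala array with the highest summed level of cortical excitatory markers (4.46). The part of cortical tissue in the amygdala value was not tested.

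The alpha subunits, which shape where a receptor sits and how it responds to modulators, differed among themselves in regional order. Of 4 fitted alpha genes, 3 were called higher in amygdala than in hypothalamus (13.5% of all genes), and 2 were called lower in hypothalamus than in prefrontal cortex (21.3%). Gabra4, whose product often joins the delta subunit in forebrain, read 2.96, 3.33 and 3.73 on the CR, RFR and AD arrays of amygdala, 1.66, 1.94 and 2.09 on those of hypothalamus, and 3.62, 4.04 and 3.97 on those of prefrontal cortex. Hypothalamus was 3.95-fold below prefrontal cortex (-1.98 ± 0.12, adjusted p = 2.41e-05), and amygdala was 2.72-fold above hypothalamus (1.44 ± 0.12, adjusted p = 0.000297). Amygdala and prefrontal cortex overlapped, and their smaller difference (-0.54 ± 0.12, adjusted p = 0.0204) was not called without the CR amygdala array or with slide in the model.

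Gabra2, a synaptic alpha subunit, had its highest mean in amygdala. It read 0.48, 1.12 and 1.08 on the CR, RFR and AD arrays of amygdala, -0.34, 0.29 and 0.28 on those of hypothalamus, and 0.09, 0.39 and 0.59 on those of prefrontal cortex. The excess in amygdala over hypothalamus was 0.82, 0.83 and 0.80 log2 units within CR, RFR and AD (fitted 0.82 ± 0.11, adjusted p = 0.00177), and over prefrontal cortex it was 0.54 ± 0.11 (adjusted p = 0.0118), a call lost with slide in the model. Gabra3 read 1.09, 1.09 and 0.91 on the CR, RFR and AD arrays of amygdala, 0.82, 0.53 and 0.46 on those of hypothalamus, and 1.36, 1.04 and 1.07 on those of prefrontal cortex. Hypothalamus was the lowest region for this alpha subunit: amygdala exceeded it by 0.43 ± 0.10 (adjusted p = 0.0207), a call kept in 12 of 20 alternatives, and hypothalamus differed from prefrontal cortex by -0.55 ± 0.10 (adjusted p = 0.00419). A dimmer second Gabra3 probe gave the same directions, 0.25 and -0.41, neither of which was called (adjusted p = 0.302 and 0.0839). Gabra5, an extrasynaptic alpha subunit known from hippocampus, ranged over 0.64 log2 units on the 9 arrays and was called in no region contrast, although a second probe was called lower in amygdala than in prefrontal cortex (-0.55, adjusted p = 0.0361). Gabra6, typical of cerebellar granule cells, was not well above background on any array.

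The beta subunits, which complete the GABA binding site with the alpha subunits, went opposite ways between hypothalamus and prefrontal cortex. Gabrb2 read -1.43, -1.19 and -0.94 on the CR, RFR and AD arrays of amygdala, -1.51, -1.49 and -2.00 on those of hypothalamus, and -0.14, -0.31 and -0.38 on those of prefrontal cortex, so that prefrontal cortex exceeded every other array. It was lower in hypothalamus than in prefrontal cortex by 1.39 ± 0.19 log2 units (2.62-fold, adjusted p = 0.00103) and lower in amygdala than in prefrontal cortex by 0.91 ± 0.19 (adjusted p = 0.0155). Gabrb1 was higher in hypothalamus than in prefrontal cortex by 0.45 ± 0.13 (adjusted p = 0.0245), a call kept in 11 of 20 alternatives. Its values ran between 2.41 and 2.83 in amygdala, 2.60 and 2.95 in hypothalamus, and 2.04 and 2.53 in prefrontal cortex.

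Gabrg1, a gamma subunit, was highest in hypothalamus, lower in amygdala and lowest in prefrontal cortex. It read 2.51, 2.65 and 2.64 on the CR, RFR and AD arrays of amygdala, 3.23, 3.09 and 3.34 on those of hypothalamus, and 0.94, 1.17 and 1.13 on those of prefrontal cortex. Each value is a mean over 10 spots of the probe, and the 3 regions did not overlap. Hypothalamus exceeded prefrontal cortex 4.40-fold (2.14 ± 0.11, adjusted p = 1.05e-05), amygdala exceeded prefrontal cortex 2.87-fold (1.52 ± 0.11, adjusted p = 0.000175), and amygdala was 1.53-fold below hypothalamus (-0.62 ± 0.11, adjusted p = 0.00584). Gabrg3, the other gamma gene listed, was well above background on the CR amygdala array alone.

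Gabrg1, Gabra2, Gabra4 and Gabrb1 lie in a cluster on chromosome 5, yet their regional profiles differed: hypothalamus had the highest mean for Gabrg1 and Gabrb1 and the lowest for Gabra4 and Gabra2. Gabra4 and Gabrb1 start 387 bases apart on opposite strands. Their windows and that of Gabrg1 (RefSeq, GRCm38.p6) are printed because these neighbouring starts went with opposite order of the region means. For Gabrb1 only hypothalamus over prefrontal cortex was called, in 11 of 20 alternatives. Its amygdala contrasts were not called (limma adjusted p = 0.641 against hypothalamus and 0.0921 against prefrontal cortex). Nor was Gabra2 between hypothalamus and prefrontal cortex (adjusted p = 0.0678). Gabra4 lies on the minus strand at chr5:71658259-71658558, Gabrb1 on the plus strand at chr5:71657671-71657970 (the first of 2 annotated starts), and Gabrg1 on the minus strand at chr5:70842568-70842867. Capitals mark the same 3 motifs.
Gabra4: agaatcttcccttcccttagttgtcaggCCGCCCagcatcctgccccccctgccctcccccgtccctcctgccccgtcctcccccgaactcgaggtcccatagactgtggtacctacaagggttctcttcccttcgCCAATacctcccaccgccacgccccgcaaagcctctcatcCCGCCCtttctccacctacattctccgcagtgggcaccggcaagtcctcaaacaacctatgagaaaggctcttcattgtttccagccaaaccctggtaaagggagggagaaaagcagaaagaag
Gabrb1: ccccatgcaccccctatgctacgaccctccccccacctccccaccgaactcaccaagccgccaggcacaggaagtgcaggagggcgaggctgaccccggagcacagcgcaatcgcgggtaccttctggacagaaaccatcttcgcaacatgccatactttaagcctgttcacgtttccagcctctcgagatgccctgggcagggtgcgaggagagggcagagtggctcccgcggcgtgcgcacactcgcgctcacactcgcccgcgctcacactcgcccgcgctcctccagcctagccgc
Gabrg1: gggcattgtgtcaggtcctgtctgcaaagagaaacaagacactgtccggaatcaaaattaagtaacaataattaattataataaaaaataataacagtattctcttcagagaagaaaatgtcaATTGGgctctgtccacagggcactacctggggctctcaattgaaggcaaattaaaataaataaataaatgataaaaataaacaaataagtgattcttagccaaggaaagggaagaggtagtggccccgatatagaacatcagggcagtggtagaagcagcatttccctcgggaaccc
The Gabra4 window holds 2 GGGCGG and 1 CCAAT, the Gabrg1 window holds 1 CCAAT, and the Gabrb1 window holds none of the 3. GC made up 58.7% of the Gabra4 window, 66.0% of the Gabrb1 window and 38.3% of the Gabrg1 window, beside a median of 52.7% over all windows.

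Gabre and Gabrq, the epsilon and theta subunit genes, lie near Gabra3 on the X chromosome and had their highest signals in hypothalamus. Gabrq read -4.61, -5.32 and -6.57 on the CR, RFR and AD arrays of amygdala, -3.28, -3.17 and -2.91 on those of hypothalamus, and -7.34, -7.73 and -7.14 on those of prefrontal cortex. It was well above background on all 3 hypothalamus arrays, on the CR array of amygdala and on no prefrontal cortex array. Where a group was dim, its fold is a bound taken against the lowest signal well above background on each array: Gabrq was at least 4.73-fold higher in hypothalamus than in prefrontal cortex, and at least 3.92-fold lower in amygdala than in hypothalamus. Because the hypothalamus arrays brought Gabrq into the fit, these bounds are given as a description.

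Gabre was well above background on 2 hypothalamus arrays, on the CR amygdala array and on no prefrontal cortex array. Its values were -4.11, -6.33 and -6.28 on the CR, RFR and AD arrays of amygdala, between -5.05 and -3.97 in hypothalamus and between -6.73 and -5.87 in prefrontal cortex. The 3 hypothalamus values lay above the 3 prefrontal cortex values, and no size is given for the difference, since prefrontal cortex had no measured level. A second Gabre probe, well above background on 4 arrays, read -3.84, -3.50 and -3.24 on the CR, RFR and AD arrays of hypothalamus, against -7.32, -7.73 and -7.14 on those of prefrontal cortex. On the CR amygdala array Gabre was at least 2.72-fold above the AD amygdala array and at least 2.02-fold above the RFR amygdala array, and Gabrq was at least 1.93-fold and at least 1.43-fold above them. That array had the most spots well above background (69.6%) and the lowest such signal of the 9, which was not tested as a source of these bounds. Gabrp, the pi subunit gene, was not well above background on any array.

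Of the remaining receptor genes, Gabrr1 and Gabbr1, neither was called in a region contrast. Gabrr1, a rho subunit gene, ranged over 0.40 log2 units on the 9 arrays, with mean values of -2.37 in amygdala, -2.39 in hypothalamus and -2.30 in prefrontal cortex. Gabbr1, the GABA-B subunit that binds the ligand, read -0.87, -0.84 and -1.74 on the CR, RFR and AD arrays of amygdala, -1.20, -0.97 and -0.57 on those of hypothalamus, and -0.64, -0.67 and -0.25 on those of prefrontal cortex. In amygdala the AD array was the lowest for Gabbr1, and in the other regions it was the highest. The fitted region differences of Gabbr1 were not called (between -0.63 and -0.24, adjusted p of 0.182 to 0.584). Its 3 amygdala values nevertheless all lay below its 3 prefrontal cortex values.

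Of the scaffold and trafficking genes, Nsf, the ATPase that recycles membrane fusion complexes and takes part in receptor trafficking, was lowest in hypothalamus. It read 5.44, 4.39 and 5.34 on the CR, RFR and AD arrays of amygdala, 3.84, 3.74 and 4.07 on those of hypothalamus, and 4.90, 4.54 and 5.0 on those of prefrontal cortex. Amygdala was 2.26-fold above hypothalamus (1.18 ± 0.18, adjusted p = 0.00324), and hypothalamus was 1.91-fold below prefrontal cortex (-0.93 ± 0.18, adjusted p = 0.00453). A second Nsf probe kept both directions at 0.71 and -0.65 without passing the threshold (adjusted p = 0.138 and 0.128). Of 9 pan-neuronal markers, 4 were called higher in amygdala than in hypothalamus (13.5% of all genes) and 5 lower in hypothalamus than in prefrontal cortex (21.3%), as Nsf was. Of the same 9, 4 were called lower in amygdala than in prefrontal cortex (10.2%), where Nsf differed by 0.24 without a call. Their summed levels were 7.59 to 7.77 in amygdala, 7.17 to 7.26 in hypothalamus and 8.00 to 8.18 in prefrontal cortex, and their part in the Nsf result was not tested. Gphn, which encodes gephyrin, was higher in amygdala than in hypothalamus by 0.49 ± 0.11 (adjusted p = 0.0136), kept in 15 of 20 alternatives. Gabarap, a receptor-associated adaptor of the autophagy family, was higher in hypothalamus than in prefrontal cortex by 0.39 ± 0.09 (adjusted p = 0.00944), kept in 15 of 20 alternatives, and its second probe gave 0.45 (adjusted p = 0.014).

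Other genes of the GABA pathway were taken from a list of 35, of which 31 were fitted. Between amygdala and hypothalamus 8 were called higher in amygdala (13.5% of all genes) and 5 lower (15.9%), and between amygdala and prefrontal cortex 4 higher (12.1%) and 4 lower (10.2%), mostly near the share of all genes. Between hypothalamus and prefrontal cortex 6 were called higher in hypothalamus (26.7%) and 13 lower (21.3%). The largest was Hap1, which binds huntingtin and takes part in GABA-A receptor recycling, at 11.5-fold higher in hypothalamus than in prefrontal cortex (3.53 ± 0.11, adjusted p = 1.75e-06) and 7.89-fold higher in amygdala than in prefrontal cortex (2.98 ± 0.11, adjusted p = 1.24e-05). Dbi, the diazepam binding inhibitor, was 2.62-fold higher in hypothalamus than in prefrontal cortex (adjusted p = 4.63e-05). Shisa7, an auxiliary protein of GABA-A receptors, was 4.01-fold lower in hypothalamus than in prefrontal cortex (-2.01 ± 0.19, adjusted p = 0.000172) and 3.32-fold higher in amygdala than in hypothalamus (adjusted p = 0.000854). The plasma membrane transporters Slc6a12 and Slc6a13 were both higher in amygdala than in hypothalamus, Slc6a12 by at least 9.42-fold (adjusted p = 0.00259) and Slc6a13 by 4.26-fold (adjusted p = 0.00379), the reverse of Slc6a11.

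Diet called none of the 20 GABA genes. At an adjusted p of 0.05 limma called 0 of 20 when CR was set against AD (0.0% of all genes), 0 of 20 when RFR was (0.0159%) and 0 of 20 between CR and RFR (0.0159%), and none of the 31 other pathway genes. At an unadjusted p of 0.05 it gave 5 of 20 between CR and AD (16.5% of all genes), 1 between RFR and AD (6.16%) and 5 between CR and RFR (14.8%). The 3 regions of a diet share a pool of mice, so these p-values are too small, and a single array per region and diet leaves no test within a region or of a difference between regions. The 2 comparisons with AD share the AD arrays, and the values that follow describe these arrays. No glial marker was called by diet. Of 8 astrocyte markers, 3 were higher and 5 lower for CR against AD and 8 lower for RFR against AD. Of 9 oligodendrocyte markers, 8 were higher for CR against AD and 9 lower for RFR against AD. The summed oligodendrocyte level in amygdala, hypothalamus and prefrontal cortex was 7.17, 7.74 and 6.67 on CR, 6.63, 7.33 and 5.80 on RFR, and 6.91, 7.63 and 6.26 on AD, and the part of glial RNA in the diet values was not tested.

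Gad1 read higher under CR than under AD in all 3 regions. The values were 3.76 on CR and 3.46 on AD in amygdala, 3.36 on CR and 2.87 on AD in hypothalamus, and 2.97 on CR and 2.42 on AD in prefrontal cortex. The differences were 0.29, 0.49 and 0.54 log2 units in these regions (fitted 0.44 ± 0.16, adjusted p = 0.26). A second Gad1 probe showed a wider gap: 3.58 on CR and 2.91 on AD in amygdala, 3.32 on CR and 2.20 on AD in hypothalamus, and 2.98 on CR and 1.75 on AD in prefrontal cortex. Its fitted difference was 1.01 ± 0.17, with an adjusted p of 0.201. RFR differed from AD by -0.53 in amygdala, 0.18 in hypothalamus and 0.20 in prefrontal cortex, with no common direction. CR exceeded RFR by 0.82 in amygdala, 0.31 in hypothalamus, where both arrays were on 1 slide, and 0.34 in prefrontal cortex. Without amygdala the fit called Gad1 for CR against AD (0.51, adjusted p = 0.0432), when 1236 genes were called. Gad2 did not share this pattern, at -0.36, -0.06 and -0.16 for CR against AD in the same regions (fitted -0.19 ± 0.21, adjusted p = 0.661), and the summed level of 13 interneuron markers was 6.04 on CR and 6.29 on AD in amygdala, 6.23 on CR and 6.06 on AD in hypothalamus, and 6.17 on CR and 6.02 on AD in prefrontal cortex.

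Gabra2 had the smallest p of the GABA genes for CR against AD (unadjusted p = 0.00102, adjusted p = 0.182). It read 0.48 on CR and 1.08 on AD in amygdala, -0.34 on CR and 0.28 on AD in hypothalamus, and 0.09 on CR and 0.59 on AD in prefrontal cortex. The gap was close to the same in each region, -0.61, -0.62 and -0.50 (fitted -0.57 ± 0.11). Against RFR it was -0.65, -0.63 and -0.30, and the hypothalamic pair, both on 1 slide, gave the -0.63. RFR against AD was 0.04, 0.01 and -0.20. Gabra4 was lower on CR than on AD by amounts of -0.78, -0.43 and -0.35 in amygdala, hypothalamus and prefrontal cortex (fitted -0.52 ± 0.12, adjusted p = 0.205), although with slide in the model the estimate was -0.13.

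**Figure D3:**
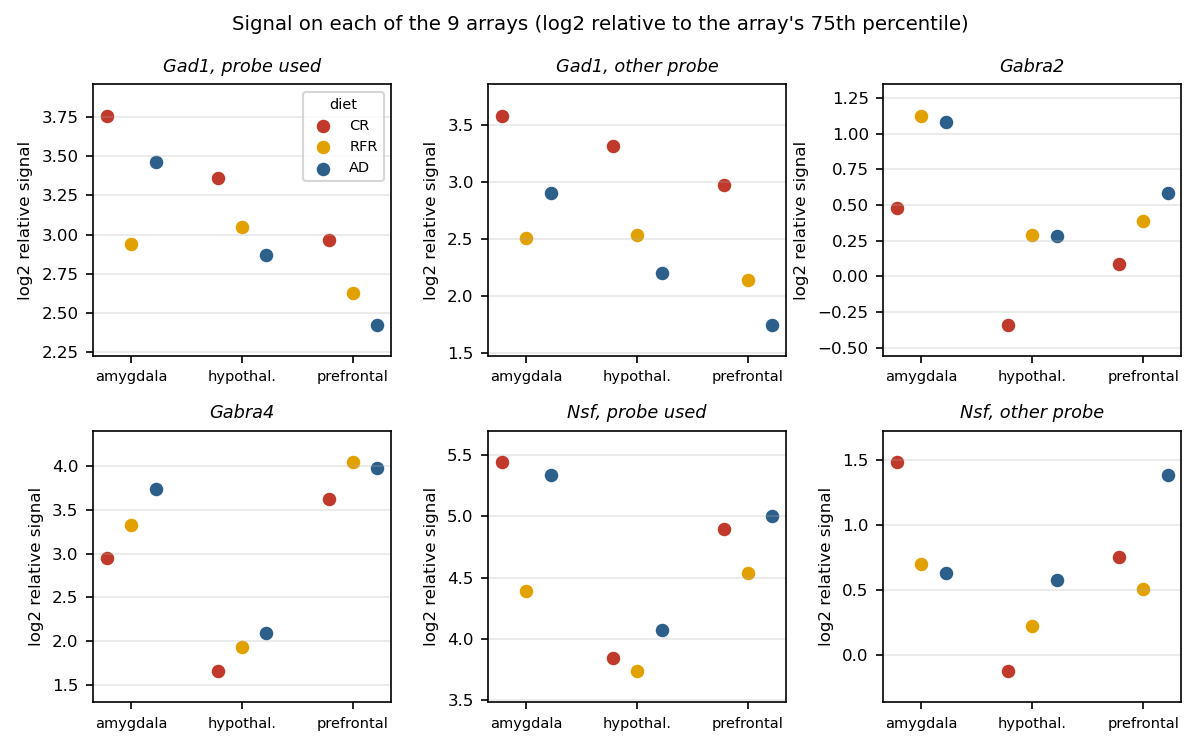
Log2 signal, with each array's 75th percentile set to 0, on each of the 9 arrays for Gad1 (both probes), Gabra2, Gabra4 and Nsf (both probes); each point is 1 array, coloured by diet, with CR left of RFR and AD in each region. CR is above AD in all 3 regions with both Gad1 probes and below AD in all 3 with Gabra2 and Gabra4.

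The other genes of the chromosome 5 cluster also read lower on CR than on AD in every region. Gabrb1 differed by -0.24 in amygdala, -0.35 in hypothalamus and -0.49 in prefrontal cortex (fitted -0.36 ± 0.13, adjusted p = 0.259). Gabrg1 differed by -0.13, -0.11 and -0.19 (fitted -0.15 ± 0.11, adjusted p = 0.521), with 1 region turning positive under quantile scaling (0.01 in amygdala) and under normexp background correction (0.01 in hypothalamus), and with slide in the model its estimate was 0.10. In all, 8 of 20 GABA genes were lower on CR in all 3 regions, against 24.6% of all genes, and 3 were higher (Gad1, Slc32a1 and Gabra3), against 12.3%. Across the main values and 4 other scalings or sources, Gabra2, Gabra4, Gabrb1 and Gabrr1 were lower on CR in all regions each time. Gad1 and Gabra3 were higher on CR in all regions each time. All of these settings use the same arrays, so no further support is taken from them. The fit with slide as a term was not among them. In amygdala, the median difference of all genes between CR and AD was -0.11 here and 0.01 in the authors' deposited table.

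**Figure D4:**
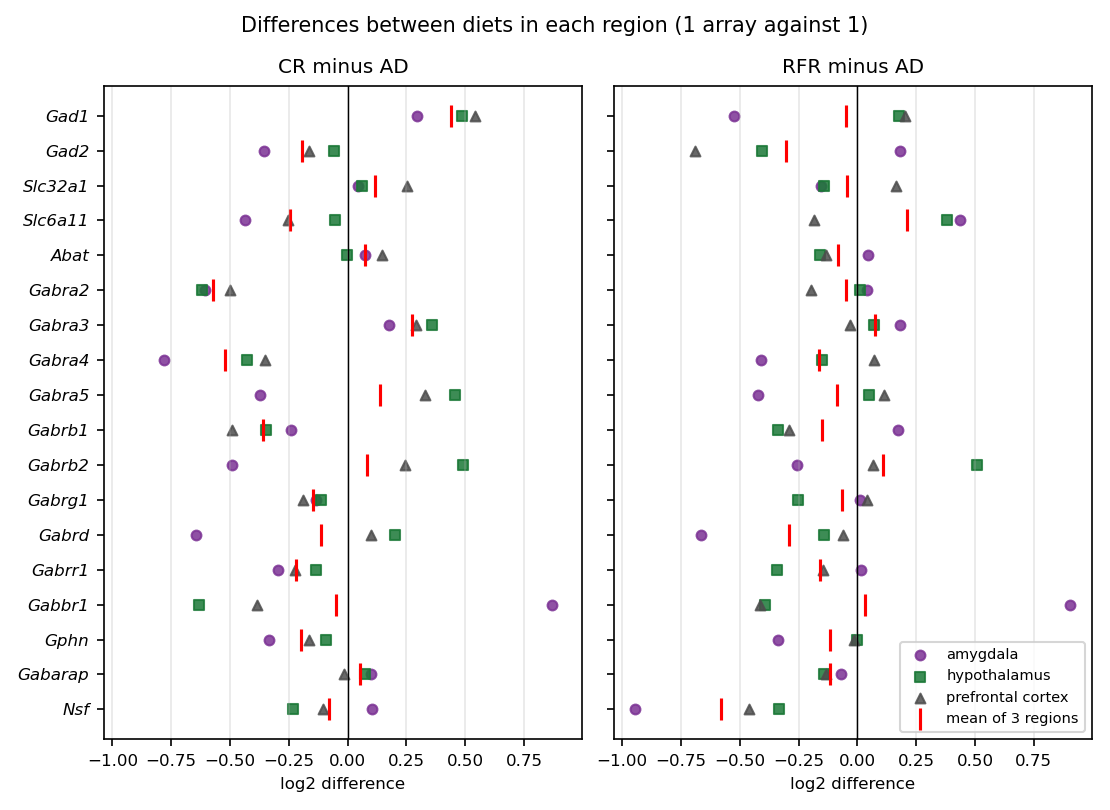
Log2 difference between diets in each region (1 array against 1) for the 18 GABA genes well above background on all arrays, CR minus AD on the left and RFR minus AD on the right; the red bar is the mean of the 3 regions. Gabra2 and Gabra4 are below 0 in all regions for CR and Nsf is below 0 in all regions for RFR.

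Between RFR and AD, none of the 20 genes was higher in all 3 regions (10.9% of all genes). Lower in all 3 were 4, near the share of all genes (16.4%), namely Gabrd, Gphn, Gabarap and Nsf. Nsf was the member with an unadjusted p under 0.05, at -0.94 in amygdala, -0.33 in hypothalamus and -0.46 in prefrontal cortex, where the arrays shared a slide (fitted -0.58 ± 0.18, adjusted p = 0.693). The second Nsf probe gave 0.07, -0.35 and -0.87. Against RFR, CR was higher in all 3 regions for 7 genes (21.6% of all genes) and lower for 4 (23.2%).

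Within a region, 1 GABA gene differed by at least 1 log2 unit between diets while well above background on both arrays. That was Nsf in amygdala, at 5.44 on CR and 4.39 on RFR (1.05), among 18 such genes, when 2.16% of all genes passed this step. Its second probe gave 1.48 on CR and 0.70 on RFR (0.78). The other amygdala comparisons had 0 of 18, with 3.26% of all genes past the step for CR against AD and 1.47% for RFR against AD. In hypothalamus there were 0 of 20 for CR against AD (1.34%), 0 of 19 for RFR against AD (0.691%) and 0 of 19 for CR against RFR (0.528%). In prefrontal cortex there were 0 of 18 in each comparison (1.13%, 0.971% and 0.819%). Gabbr1 came closest after Nsf. It read -0.87 on CR, -0.84 on RFR and -1.74 on AD in amygdala, so that CR was 0.87 and RFR 0.90 above AD there, whereas in hypothalamus CR was -0.63 and RFR -0.39 from AD, and in prefrontal cortex CR was -0.39 and RFR -0.42 from AD. Gabrd was lower in amygdala on CR and RFR than on AD, by -0.65 and -0.66, on the AD array with the highest cortical excitatory sum.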

How the data were processed

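Each value comes from 1 Cy3 array of pooled RNA. Per the file headers, Agilent Feature Extraction 9.5.1.1 gave the deposited processed signal, a background-corrected intensity; median spot and local background intensities, and flags of another (other) kind, come from the same files. The authors' deposited table holds a ratio: per array, 99.3% to 99.4% of its values (rounded) lay within 0.01 log2 of the ratio of processed signals to the AD array of the region times 1 constant per array, which differed from the scaling here by 0.005 to 0.131.

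Outlier spots were dropped, log2 signals were centred on each array's 75th percentile, and spots of a probe were averaged. Probes were named by RefSeq accession (22951 of 41174 probes; names from a GRCm38.p6 table), and the probe with the highest mean stands for a gene. Genes well above background on at least 3 arrays, with a value on at least 6, were fitted with limma 3.58.1 (R 4.3.3): region plus diet, 4 residual degrees of freedom, Benjamini-Hochberg adjustment over 12618 genes at 0.05. The fit was tested on simulated data. Summed marker levels are log2 of summed linear signals. Repeated spots had a median SD of 0.063 to 0.099 log2; the number of arrays limits the precision. Python 3.11.15, numpy 2.4.6, pandas 2.3.3 and matplotlib 3.10.9 did the rest.

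Values on every array are given for members called in at least 2 region contrasts or past 1 log2 unit within a region, and for Gad1, Gad2, Slc32a1 and Gabbr1; of the other pathway genes, at most the 4 largest calls per contrast are eligible. Members, lists and rule were chosen with earlier results of these data known. A second probe of a gene was fitted over all probes, an alternative chosen after seeing the data. The AD array is the control of each diet comparison. No coordinates of the array's own build were used.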

Additional observations from a re-analysis of the deposited data

How the results depend on the processing

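With slide as a fixed term (2 residual degrees of freedom) 3 members were called between amygdala and prefrontal cortex, and 11 and 14 in the other region contrasts. Leaving out 1 array or pool gave 8 to 12 calls for amygdala against hypothalamus, 4 to 12 for amygdala against prefrontal cortex (4 without the RFR pool, 5 without RFR prefrontal cortex, 6 without the CR pool, RFR amygdala or CR prefrontal cortex) and 11 to 16 for hypothalamus against prefrontal cortex. The region fit without diet, that is with no replicate block for the pool, called 11, 7 and 13. CR against AD gave 0 to 1 calls when 1 array or region was left out, the 1 being Gad1 without amygdala; over all genes it gave 0 calls in the main setting, 1236 without amygdala, 563 without the AD amygdala array, 5 with slide and 3 in the authors' table. Over all genes, amygdala against prefrontal cortex gave 2815 calls in the main setting, 1394 with slide and 894 without the RFR pool; CR against RFR gave 2, with 41 under normexp or trended variances, and RFR against AD 2, with 13 with slide. Within amygdala, 1 member passed 1 log2 unit for CR against AD in the authors' table (Gabbr1, 1.00), 1 for RFR against AD under normexp (Nsf, -1.14), and 0 for CR against RFR with the mean of all probes. The cause of these changes was not tested. Normexp was run on median spot signals. No member difference that had been called changed sign under any alternative.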
